A study of Drosophila melanogaster with 31 samples.

Results

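Clones of eye disc cells that lacked functional Tsc1 and carried a knockdown of foxo were compared with clones that carried the knockdown alone, both from Drosophila larvae under nutrient restriction (NR). The tested clones (Tsc1 foxoRi, 4 libraries) were homozygous for the nonsense allele Tsc1[Q87X] and expressed an RNAi transgene against foxo. The clones they were set against (foxoRi, 3 libraries) expressed the same transgene and were wild-type for Tsc1. These 7 libraries were all those, out of 31 in the series, whose labels gave NR and 1 of these 2 genotypes, and every gene in the count table entered the comparison. Each library was made from 1 clone of about 50 cells, microdissected with a laser from an eye disc, the sheet of larval cells that later becomes the adult eye, and taken ahead of the morphogenetic furrow, behind which photoreceptors arise.

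Both groups were kept from the first larval stage on NR food, in which the yeast is reduced, and were dissected 6.5 days after egg laying (AEL). Both were also moved to 30°C for the last 12 hr before dissection, so the RNAi transgene and the heat treatment were shared. At that temperature Gal80ts, a heat-sensitive inhibitor, no longer blocks the Gal4 activator, which a tubulin promoter drives in the cells of the clone. In these libraries the extent of knockdown was not measured apart from the foxo transcript below. From nuclear FoxO staining of Tsc1 mutant clones the authors judged the 12 hr shift to be enough. They saw no fall of foxo transcript in their knockdown samples. In cultured Kc167 cells with foxo knockdown they saw a partial loss of transcript and a significant loss of FoxO protein. Clones arose by heat-shock FLP recombination at FRT82 and lay beside non-clonal, GFP-positive tissue that was not homozygous for the Tsc1 allele. A clone is a single patch of 1 disc, and the sources used here do not state which clones shared a larva, so p-values measure the spread between clones. Other comparisons were used to set the results side by side. They were Tsc1 foxoRi against foxoRi clones on normal food (4 libraries each, 4.5 days AEL, 30°C) and Tsc1[Q87X] against wild-type (wt) clones under NR without the knockdown (4 libraries each, 6.5 days AEL, 25°C).

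Tsc1 and its partner gig, the fly Tsc2, form a complex that switches off the GTPase Rheb and so holds back TORC1, the kinase complex that drives protein synthesis and growth when amino acids are plentiful. Cells without Tsc1 keep TORC1 active when food is poor. FoxO is a transcription factor that insulin signalling excludes from the nucleus and that, when insulin is low, turns on genes that slow growth. Because both groups carried the RNAi transgene, the comparison addresses what loss of Tsc1 changes in starved clones that express it.

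Total counts were between 9389470 and 12400267 in the Tsc1 foxoRi libraries, and were 9724388, 11242101 and 5700843 in foxoRi replicates 1, 2 and 3. The Tsc1 foxoRi libraries had counts on 10960 to 14032 genes, against 11226 and 10207 genes in foxoRi replicates 1 and 2 and only 4468 genes in foxoRi replicate 3. That library therefore stood apart, and it was set aside with the 1 other library of the series that had the fewest genes with a count (replicate 4 of wt on normal food). The main comparison rests on the remaining 29 libraries (4 Tsc1 foxoRi against 2 foxoRi), and the counts for gene lists and the calls of named genes are also given, or said to be kept or lost, from all 31 (4 against 3). Levels are in CPM, which scales counts to the TMM-normalized size of each library, and log2 fold changes (FC) are Tsc1 foxoRi over foxoRi with the standard error (SE). Adjusted p-values are Benjamini-Hochberg values from edgeR's quasi-likelihood test over all tested genes, and calls of upregulated and downregulated genes required both an adjusted p below 0.2 and an absolute log2 FC above 0.8. Where 3 foxoRi values are given, they are replicates 1, 2 and 3, the third scaled in the fit of 31 libraries. In clones of different composition, fewer cells of a type and less RNA per cell cannot be told apart.

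Neither targeted gene passed a test. Tsc1 transcript stood at 21.4, 24.2, 18.3 and 20.6 CPM in Tsc1 foxoRi clones, against 27.2, 24.5 and 0 CPM in foxoRi clones. All Tsc1 foxoRi clones lay below foxoRi replicates 1 and 2 and above foxoRi replicate 3, and the difference of the means did not pass an exact 2-sided permutation test (p = 0.133 with 4 against 2, where the smallest possible p is 0.0667, and p = 0.857 with 4 against 3). A nonsense allele still gives transcript, so this level does not check the genotype. The authors report only mutant transcript at the Q87X position in Tsc1 mutant clones, with a Tsc1 foxoRi clone under NR as their example. Transcript of foxo was 46.3, 27.3, 48.8 and 32.2 CPM in Tsc1 foxoRi clones, against 77.9, 37.7 and 32.1 CPM in foxoRi clones, and the groups overlapped (log2 FC −0.58 ± 0.33 SE, adjusted p = 0.389). Neither gig (log2 FC −0.21 ± 0.32, adjusted p = 0.769, and −0.82, adjusted p = 0.232, in 31 libraries), Myc, the growth-driving transcription factor (−0.05 ± 0.36, adjusted p = 0.960), nor w, the eye pigment transporter that many transgenes carry as a marker (−0.28 ± 0.63, adjusted p = 0.855), passed the test. With foxoRi replicate 3 included, Myc was called lower (log2 FC −1.18), since that library alone had 955 CPM against 184 and 247 CPM in the other foxoRi clones.

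Of 13524 genes tested in the 29 libraries, 86 (0.636%) were upregulated and 73 (0.54%) were downregulated in Tsc1 foxoRi clones. At an unadjusted p under 0.05 there were 1177 higher genes (8.7%) and 585 lower genes (4.33%), and at an adjusted p under 0.05 there were 4 upregulated and 10 downregulated genes. In the 31 libraries, 1037 of 12024 genes (8.62%) were upregulated and 776 (6.45%) downregulated. The counts of called list members in 29 and in 31 libraries are read against the shares of the same fit. In the 29 libraries DESeq2 called 990 genes higher (7.32%) and 271 lower (2%), and edgeR's likelihood ratio test 189 (1.4%) and 116 (0.858%), and list counts by these tests are read against those shares. Of the 86 upregulated genes, 59 were called the same way in the 31 libraries, 2 were called the other way, 24 lost the call and 1 was not tested there. Of the 73 downregulated genes, 51 kept the call and 22 lost it. The counts depended on single foxoRi libraries. Leaving out foxoRi replicate 1 left 0 upregulated and 2 downregulated genes, and leaving out foxoRi replicate 2 left 0 and 3, while leaving out Tsc1 foxoRi clones in turn gave 56 to 95 upregulated and 54 to 127 downregulated genes, the lowest without Tsc1 foxoRi replicate 2 and the most downregulated genes without Tsc1 foxoRi replicate 1.

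Over all tested genes the median log2 FC was 0.47 in the 29 libraries and 0.68 in the 31, so list medians are read against it. It came from genes of low expression. In quintiles of genes from the lowest to the highest mean level the median log2 FC was 3.74, 2.64, 0.38, 0.07 and −0.08. Upregulated genes were spread as 0, 5, 13, 27 and 41 over these quintiles, and downregulated genes as 0, 0, 2, 10 and 61. The calls therefore lay mostly among well-expressed genes, where the median was near 0. All 73 downregulated genes had the 4 Tsc1 foxoRi clones below foxoRi replicates 1 and 2 (8.39% of tested genes did), and 82 of 86 upregulated genes had them above (10.1% of tested genes did). With foxoRi replicate 3 counted as well, 42 and 55 genes had no overlap (2.52% and 8.6% of tested genes). In foxoRi replicate 3, 30 of the 86 upregulated and 7 of the 73 downregulated genes had no count, as had 9135 of all 13524 tested genes. For upregulated genes at or near 0 in that library, lack of overlap with it and a call kept in 31 libraries are no separate support.

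**Figure D1:**
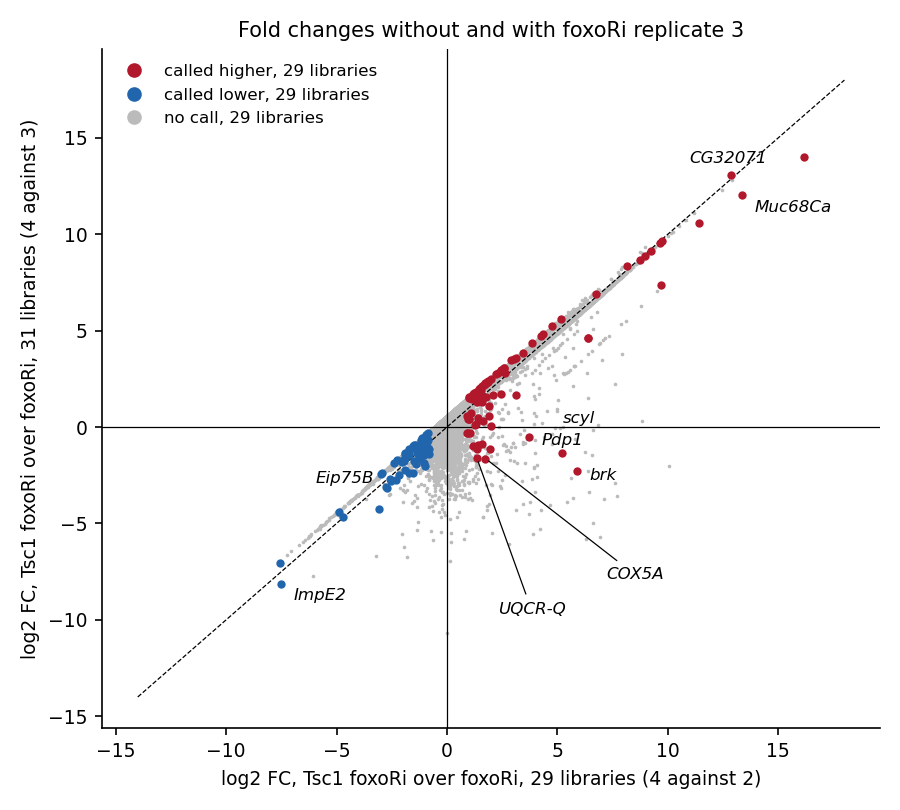
Log2 FC of Tsc1 foxoRi over foxoRi clones under NR, from 29 libraries on the x axis and from 31 libraries on the y axis, 1 point per gene tested in both. Red and blue points are genes called upregulated and downregulated in the 29 libraries, grey points are the others, the dashed line marks equal values, and named genes such as COX5A, UQCR-Q, Pdp1 and brk drop below 0 once foxoRi replicate 3 is counted.

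The upregulated gene with the smallest p was scyl, and chrb was number 4. Both encode REDD-type proteins, stress-induced inhibitors that act on TORC1 through the Tsc1-gig complex. In the BDGP6 annotation scyl spans positions 11252307 to 11256172 of chromosome 3L and chrb 11487550 to 11499055. The level of scyl was 2394, 879, 1252 and 1659 CPM in Tsc1 foxoRi clones, against 272, 301 and 790 CPM in foxoRi clones. Each Tsc1 foxoRi clone was above each foxoRi clone, with foxoRi replicate 3 the nearest (log2 FC 2.43 ± 0.41, adjusted p = 0.0119 in 29 libraries, and 1.73, adjusted p = 0.0171, in 31). The level of chrb was 959, 267, 560 and 715 CPM in Tsc1 foxoRi clones, against 149, 122 and 0.45 CPM in foxoRi clones. Here too the groups did not overlap, with foxoRi replicate 3 near 0 (log2 FC 2.21 ± 0.46, adjusted p = 0.0417, and 2.76, adjusted p = 0.0384, in 31 libraries). Tsc1 foxoRi replicate 2 was the lowest of its group for both genes.

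Of the other 10 upregulated genes with the smallest p, several encode enzymes and cytoskeletal proteins. CG15093 had 46.8, 114, 72.8 and 73.5 CPM in Tsc1 foxoRi clones, against 6.87, 12.0 and 0.225 CPM in foxoRi clones (log2 FC 3.02 ± 0.55, adjusted p = 0.0232). CG9674 had 110, 106, 93.2 and 184 CPM in Tsc1 foxoRi clones, against 44.7, 30.2 and 0.674 CPM in foxoRi clones (log2 FC 1.72 ± 0.32, adjusted p = 0.0245). Neither gene overlapped between groups, with or without foxoRi replicate 3, which was near 0 for both. Prx2, a peroxiredoxin that removes hydrogen peroxide, had 239, 402, 227 and 318 CPM in Tsc1 foxoRi clones, against 97.8, 94.4 and 506 CPM in foxoRi clones. It was above foxoRi replicates 1 and 2 in every Tsc1 foxoRi clone (log2 FC 1.63 ± 0.36, adjusted p = 0.0727), but foxoRi replicate 3 was the highest of all 7 and the call was lost in 31 libraries (log2 FC 0.31, adjusted p = 0.745).

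Pdp1, a PAR-domain transcription factor of the circadian clock and of growth, showed the same dependence more strongly. Its level was 36.7, 43.4, 96.9 and 39.5 CPM in Tsc1 foxoRi clones, against 2.65, 5.63 and 215 CPM in foxoRi clones. Its log2 FC was 3.70 ± 0.80 (adjusted p = 0.0619) without foxoRi replicate 3 and −0.49 (adjusted p = 0.795) with it. The gene brk, a repressor of Dpp target genes, behaved alike, with 48.0, 49.4, 19.0 and 22.7 CPM in Tsc1 foxoRi clones, against 1.18, 0 and 497 CPM in foxoRi clones (log2 FC 5.88, adjusted p = 0.108, and −2.30, adjusted p = 0.276, in 31 libraries). For both genes foxoRi replicate 3 exceeded every other library.

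CysRS, the synthetase that charges tRNA with cysteine, had 27.2, 31.9, 33.4 and 37.6 CPM in Tsc1 foxoRi clones, against 11.6, 7.84 and 0 CPM in foxoRi clones (log2 FC 1.74 ± 0.40, adjusted p = 0.0905). It overlaps the gene sotv on the other strand, and whether the counting used strand is not given in the sources used here. It was the 1 upregulated member of 19 tested aminoacyl-tRNA synthetases (list median 0.41), and in 31 libraries 1 was upregulated and 4 were downregulated. AnxB9, a calcium-dependent membrane-binding annexin, was even within groups, at 133, 145, 153 and 152 CPM in Tsc1 foxoRi clones, against 62.7, 61.2 and 0.225 CPM in foxoRi clones (log2 FC 1.23 ± 0.30, adjusted p = 0.108). Chd64, a calponin-family actin-binding protein, had 165, 195, 128 and 135 CPM in Tsc1 foxoRi clones, against 29.4, 57.2 and 0.45 CPM in foxoRi clones (log2 FC 1.85 ± 0.44, adjusted p = 0.101). All 3 genes were without overlap and were also called in 31 libraries, but foxoRi replicate 3 was at or near 0 for each, so it adds nothing to these calls.

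CAP, an adaptor of cell-matrix attachment sites in muscle and other tissues, had 14.8, 35.4, 23.9 and 10.7 CPM in Tsc1 foxoRi clones, against 0.491, 1.66 and 0 CPM in foxoRi clones (log2 FC 4.28 ± 0.96, adjusted p = 0.0727). The summed level of the 4 muscle markers Mhc, Act57B, Mlc2 and Tm2 moved with it, at 22.4, 52.9, 42.1 and 13.2 CPM in Tsc1 foxoRi clones, against 3.83, 3.14 and 2.02 CPM in foxoRi clones. All 4 markers had counts in each Tsc1 foxoRi clone, while Tm2 was at 0 in foxoRi replicate 2 and Tm2, Act57B and Mhc were at 0 in foxoRi replicate 3. The part of muscle RNA in the levels of CAP and Chd64 was not tested. The genes bero and CG10863 had no count in any foxoRi clone, and 7.61 to 12.7 CPM of bero and 6.04 to 18.01 CPM of CG10863 in Tsc1 foxoRi clones. Set against a floor of 3 counts in each of the 3 foxoRi libraries, bero was at least 25.99-fold higher and CG10863 at least 24.05-fold higher.

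**Figure D2:**
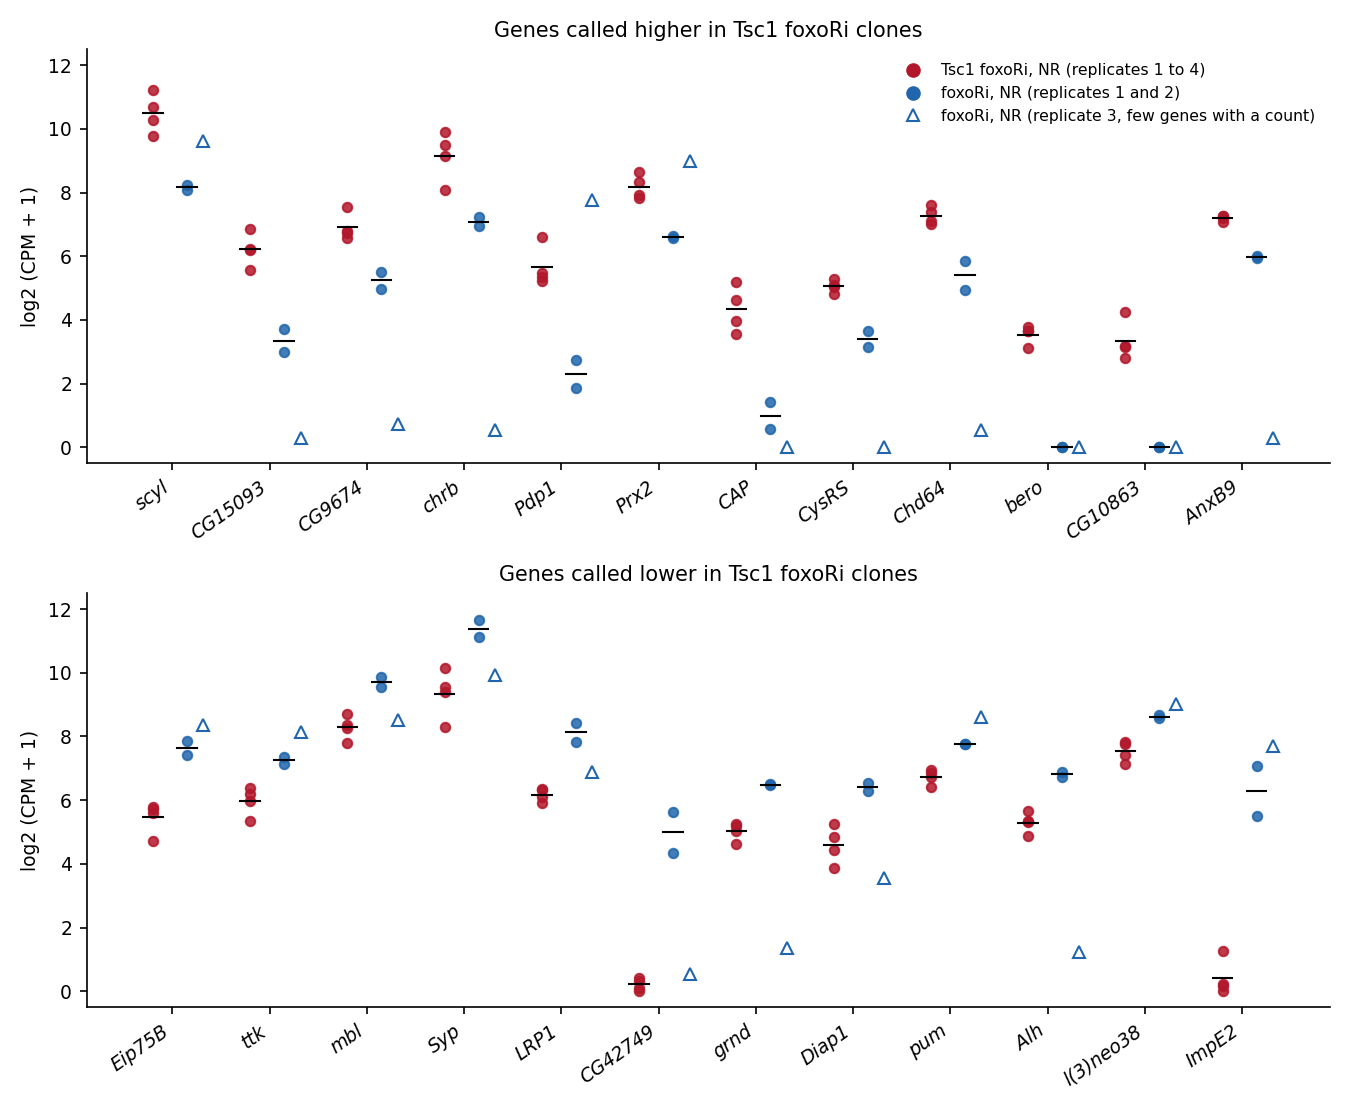
Level of each leading gene as log2 (CPM + 1) in every library, with Tsc1 foxoRi clones in red left of foxoRi clones in blue, foxoRi replicate 3 as an open triangle and bars at the mean of the log2 values of the filled points. The upper panel holds the 12 upregulated genes with the smallest p, and the lower panel the matched downregulated genes of smallest p together with ImpE2, which was added after its values were seen.

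Genes of energy metabolism held upregulated and no downregulated genes in the 29 libraries. Of 76 nuclear-encoded members of the respiratory chain and ATP synthase (oxidative phosphorylation), 7 were upregulated (0.636% of all tested genes were) and 0 downregulated, with 22 and 0 by DESeq2, which called 7.32% of all genes higher. At an unadjusted p under 0.05, 24 were higher and 0 lower, and 70 had a log2 FC above 0, against 8916 of 13524 genes in all. The list median was 0.71, beside 0.47 for all tested genes, and 63 of its 76 members lay in the upper 2 quintiles of expression, where the medians were 0.07 and −0.08. In 31 libraries, where 8.62% and 6.45% of all genes were called, 10 of 71 members were upregulated and 7 downregulated, with a list median of 0.84. In foxoRi replicate 3, 34 of the 76 members had no count, as had 9135 of all 13524 tested genes. Without foxoRi replicate 1 or 2, no member was called, with 16 and 7 members higher at an unadjusted p under 0.05.

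ATPsynCF6, a coupling subunit of ATP synthase, had 56.8, 62.2, 51.8 and 52.4 CPM in Tsc1 foxoRi clones, against 27.6, 25.3 and 44.1 CPM in foxoRi clones (log2 FC 1.08 ± 0.27, adjusted p = 0.112). ATPsynG, another subunit, had 50.4, 63.8, 55.1 and 42.9 CPM in Tsc1 foxoRi clones, against 21.7, 25.2 and 0 CPM in foxoRi clones (log2 FC 1.18 ± 0.31, adjusted p = 0.132). Both were without overlap over all 7 libraries, and ATPsynCF6 lost its call in 31 libraries (adjusted p = 0.243). ND-B14.7 of complex I had 17.2, 10.9, 29.1 and 13.2 CPM in Tsc1 foxoRi clones, against 4.61, 7.01 and 0 CPM in foxoRi clones (log2 FC 1.59 ± 0.40, adjusted p = 0.112). COX7C of complex IV had 69.6, 88.7, 37.1 and 37.0 CPM in Tsc1 foxoRi clones, against 17.3, 20.8 and 31.2 CPM in foxoRi clones (log2 FC 1.61 ± 0.41, adjusted p = 0.113). Both stayed called in 31 libraries, ND-B14.7 at an adjusted p of 0.0976 and COX7C at 0.100.

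The 2 upregulated genes whose call turned round in 31 libraries were also members of this list, and they were picked out after their values were seen. COX5A of complex IV had 116, 386, 59.2 and 77.5 CPM in Tsc1 foxoRi clones, against 42.3, 52.9 and 1327 CPM in foxoRi clones. UQCR-Q of complex III had 46.0, 105, 54.1 and 53.8 CPM in Tsc1 foxoRi clones, against 25.4, 25.3 and 518 CPM in foxoRi clones. Both were above foxoRi replicates 1 and 2 in every Tsc1 foxoRi clone and far below foxoRi replicate 3, so that log2 FC of 1.75 for COX5A and 1.35 for UQCR-Q became −1.63 and −1.60.

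Enzymes of the TCA cycle and gluconeogenesis, a list of 20 drawn up with results of these data in view, had 5 upregulated and 0 downregulated members, 8 higher and 0 lower at an unadjusted p under 0.05, and a median of 0.75. All 20 had a log2 FC above 0, and 19 lay in the upper 2 quintiles of expression. In 31 libraries 3 were upregulated and 3 downregulated. Pepck1, which makes phosphoenolpyruvate for gluconeogenesis, had 60.0, 319, 54.2 and 149 CPM in Tsc1 foxoRi clones, against 3.24, 0.185 and 14.2 CPM in foxoRi clones, without overlap (log2 FC 6.41 ± 1.65, adjusted p = 0.123). The same counts were listed for CG45087, which overlaps Pepck1 on the same strand, so the reads cannot be assigned to 1 of them. PCB, pyruvate carboxylase, had 15.7, 59.6, 47.1 and 36.7 CPM in Tsc1 foxoRi clones, against 2.36, 1.48 and 0 CPM in foxoRi clones (log2 FC 4.37 ± 1.14, adjusted p = 0.129). Both genes were also called in 31 libraries.

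Of the malate dehydrogenases, cytosolic Mdh1 had 31.3, 46.6, 30.3 and 24.5 CPM in Tsc1 foxoRi clones, against 14.5, 9.87 and 0 CPM in foxoRi clones, and stayed called in 31 libraries (log2 FC 1.44 ± 0.41, adjusted p = 0.156). Mitochondrial Mdh2 had 43.0, 69.1, 57.5 and 46.3 CPM in Tsc1 foxoRi clones, against 28.5, 18.6 and 263 CPM in foxoRi clones, and did not (log2 FC 1.20, adjusted p = 0.179, and −0.98, adjusted p = 0.295, in 31 libraries). Idh3a, a subunit of isocitrate dehydrogenase, was called in the 29 libraries (log2 FC 1.01 ± 0.30, adjusted p = 0.198) but missed the threshold in 31 (adjusted p = 0.205). Outside the list, the citrate transporter Indy was upregulated (log2 FC 1.75 ± 0.44, adjusted p = 0.112), as was Aldh, an aldehyde dehydrogenase, with 22.2, 135, 72.9 and 67.8 CPM in Tsc1 foxoRi clones, against 1.28, 2.86 and 0 CPM in foxoRi clones (log2 FC 5.16 ± 1.46, adjusted p = 0.160). Indy, Aldh and the genes of the TCA list were chosen after their values were seen.

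Of 71 mitochondrial ribosomal protein genes, 0 were called by edgeR's quasi-likelihood test, 1 by its likelihood ratio test and 9 by DESeq2, 8 were higher and 0 lower at an unadjusted p under 0.05, and the median was 0.77. All 71 lay in quintiles 3 and 4 of expression, whose medians were 0.38 and 0.07, and in 31 libraries 7 were upregulated and 4 downregulated. Of 22 subunits of the vacuolar ATPase, which acidifies lysosomes, 1 was upregulated (median 0.66), and 2 of 21 were upregulated and 1 downregulated in 31 libraries. This was Vha68-2, with 84.5, 91.9, 90.5 and 91.8 CPM in Tsc1 foxoRi clones, against 50.8, 39.1 and 0.45 CPM in foxoRi clones, without overlap (log2 FC 1.00 ± 0.27, adjusted p = 0.144). Of 43 proteasome subunits, 0 were called (2 by the likelihood ratio test and 4 by DESeq2), 7 were higher and 0 lower at an unadjusted p under 0.05, and 40 had a log2 FC above 0 (median 0.43, beside 0.47 for all tested genes), the nearest to a call being Prosbeta7 (1.10 ± 0.34, adjusted p = 0.212). Of the 43, 33 lay in the top quintile of expression, where the median of all genes was −0.08, and 8 in the lowest, where it was 3.74. In 31 libraries 4 of 38 were upregulated and 3 downregulated.

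In glycolysis, 1 of 12 enzymes was upregulated, and the median was 0.09, with 1 upregulated and 1 downregulated in 31 libraries. This was PyK, pyruvate kinase, with 61.8, 67.5, 87.9 and 80.8 CPM in Tsc1 foxoRi clones, against 40.8, 38.0 and 194 CPM in foxoRi clones (log2 FC 0.92 ± 0.27, adjusted p = 0.179). Its call was lost in 31 libraries, where the log2 FC was −0.32. Of 13 antioxidant genes, Prx2 was upregulated and 5 were higher at an unadjusted p under 0.05 (median 0.85), among them GstS1, a glutathione transferase (log2 FC 1.02 ± 0.38, adjusted p = 0.328), mitochondrial superoxide dismutase Sod2 (1.12 ± 0.42, adjusted p = 0.328) and thioredoxin reductase Trxr1 (0.85 ± 0.36, adjusted p = 0.372). In 31 libraries 1 of the 13 was upregulated, and it was Trxr1.

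**Figure D3:**
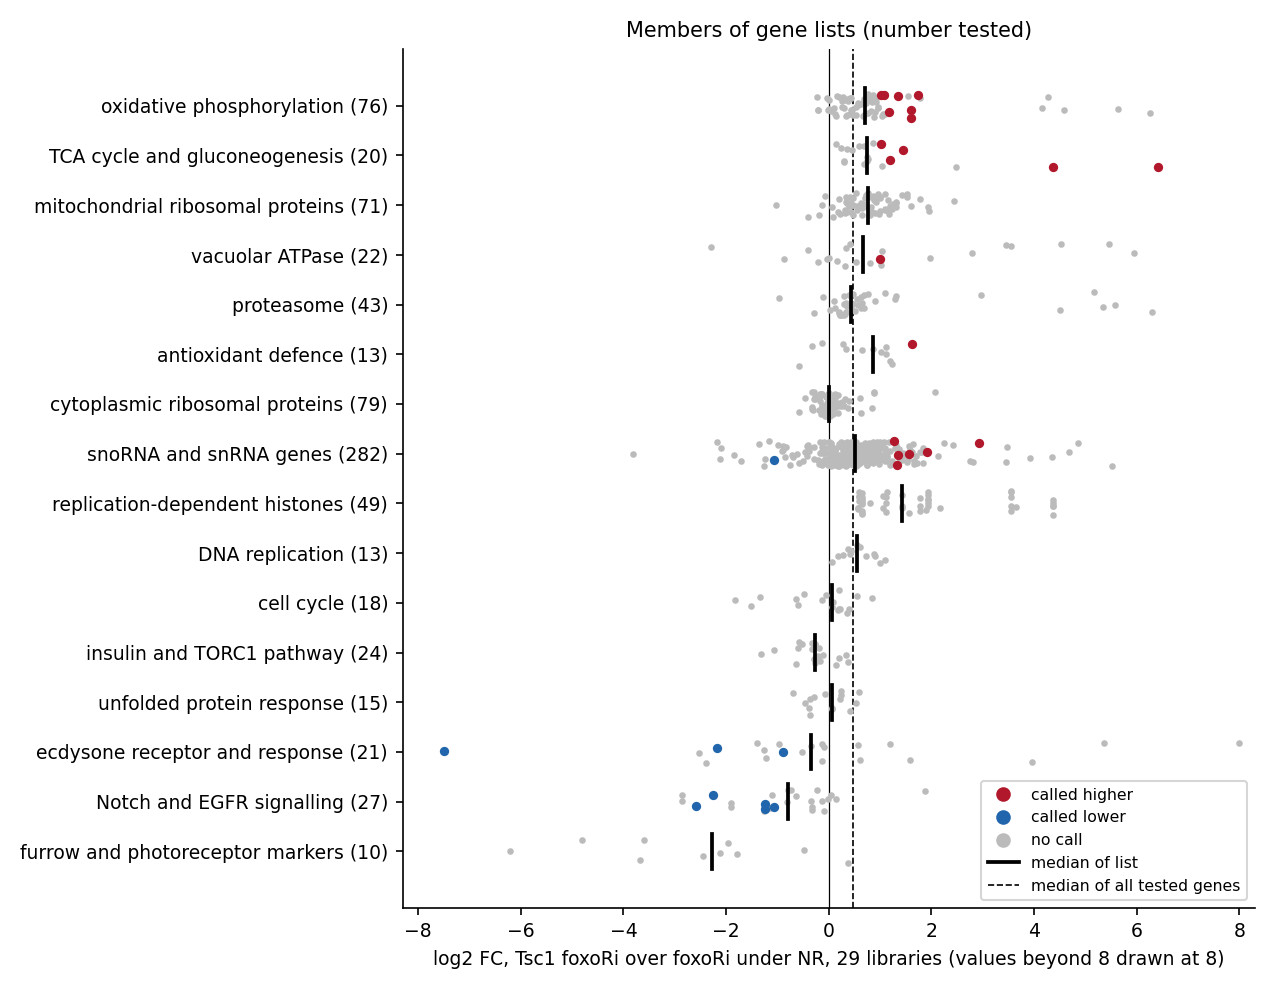
Log2 FC of Tsc1 foxoRi over foxoRi clones under NR for the members of 16 gene lists in the 29 libraries, 1 point per gene, red if upregulated, blue if downregulated and grey if not called. Black bars are list medians and the dashed line is the median of all tested genes, 0.47. The lists of oxidative phosphorylation and of the TCA cycle carry red points and no blue ones, and those of ecdysone and of Notch and EGFR signalling blue points and no red ones.

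Of 79 cytoplasmic ribosomal protein genes, 0 were called (1 higher by DESeq2), 1 was higher and 1 lower at an unadjusted p under 0.05, and the median was 0.01, with 76 of them in the top quintile of expression. In 31 libraries 2 were upregulated and 6 downregulated, and the median was −0.22. The Myc network and nucleolar growth genes had 0 of 25 calls (5 higher and 1 lower by DESeq2), with 5 higher and 1 lower at an unadjusted p under 0.05 and a median of 0.54, and 2 were upregulated and 1 downregulated in 31 libraries. Of 282 small nucleolar and small nuclear RNAs, which guide rRNA modification and splicing, 6 were upregulated and 1 downregulated, and 42 were higher and 5 lower at an unadjusted p under 0.05 (median 0.51). In 31 libraries 22 of 280 were upregulated and 11 downregulated, where 8.62% and 6.45% of all genes were. The pseudouridylation guide snoRNA:Psi28S-1135b had 57.2, 65.9, 66.1 and 39.1 CPM in Tsc1 foxoRi clones, against 20.9, 17.9 and 17.98 CPM in foxoRi clones, without overlap (log2 FC 1.56 ± 0.40, adjusted p = 0.123). It lies within RpS5a on the same strand, as snoRNA:Psi18S-1377e lies within RpS7, whose call (log2 FC 1.33 ± 0.33, adjusted p = 0.108) was lost in 31 libraries (0.14, adjusted p = 0.867). The small nuclear RNA snRNA:LU had 4510, 1993, 540 and 1096 CPM in Tsc1 foxoRi clones, against 221, 316 and 0.899 CPM in foxoRi clones (log2 FC 2.92 ± 0.78, adjusted p = 0.138), without overlap.

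Replication-dependent histone genes had 0 of 49 calls (14 higher by DESeq2), although all 49 had a log2 FC above 0 and 18 had an unadjusted p under 0.05 (median 1.43). Of the 49, 9 lay in quintile 2, 30 in quintile 3 and 10 in quintile 4 of expression, whose medians were 2.64, 0.38 and 0.07. In 31 libraries 19 of 45 were upregulated and 0 downregulated (median 1.64). Many of these copies are near identical and share reads, so they are not separate measurements. Of 13 DNA replication genes, 0 were called (4 higher by DESeq2), 5 were higher at an unadjusted p under 0.05 and all 13 had a log2 FC above 0 (median 0.56), and 3 were upregulated in 31 libraries. Of the 13, 3 lay in quintile 4 and 10 in quintile 5, whose medians were 0.07 and −0.08. For Cdc45, a subunit of the replicative helicase, the log2 FC was 1.09 ± 0.40 (adjusted p = 0.313), and for RnrL, the large subunit of ribonucleotide reductase, it was 0.89 ± 0.35 (adjusted p = 0.343). Cell cycle regulators had 0 of 18 calls (3 lower by DESeq2 and 1 by the likelihood ratio test) and a median of 0.07, with 0 higher and 4 lower at an unadjusted p under 0.05, and 1 was downregulated in 31 libraries (median 0.22). Among these 4, stg, the Cdc25 phosphatase that starts mitosis, had 415, 187, 530 and 282 CPM in Tsc1 foxoRi clones, against 897, 896 and 2.02 CPM in foxoRi clones (log2 FC −1.34 ± 0.56, adjusted p = 0.365). CycD (−1.52 ± 0.50, adjusted p = 0.250) and the Cdk inhibitor dap (−1.82 ± 0.64, adjusted p = 0.294) also lay below foxoRi replicates 1 and 2 in every Tsc1 foxoRi clone, and foxoRi replicate 3 was near 0 for all 3.

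Core genes of the insulin and TORC1 pathway had 0 of 24 calls (1 lower by either DESeq2 or the likelihood ratio test), with 0 higher and 2 lower at an unadjusted p under 0.05 and a median of −0.26. In 31 libraries 3 were downregulated and the median was 0.21, beside 0.68 for all tested genes. The 2 lower genes in 29 libraries were Pdk1, the kinase that activates Akt and S6k (log2 FC −1.32 ± 0.41, adjusted p = 0.212), and rictor of TORC2 (−0.63 ± 0.29, adjusted p = 0.375). In a list of 15 FoxO and starvation response genes, which holds Myc as well as genes that rise with FoxO or fasting, Pepck1 was upregulated. At an unadjusted p under 0.05, 4 were higher and 1 lower, and 9 had a log2 FC above 0, against 8916 of 13524 genes in all. The list median was 0.97, or 0.88 with genes at 0 in 1 group put at their floor. In 31 libraries 3 were upregulated and 1 downregulated (median 1.50). Thor, the fly 4E-BP and a FoxO target that represses translation, had 4.43, 3.65, 20.5 and 0.171 CPM in Tsc1 foxoRi clones and no count in any foxoRi clone. Its mean was at least 17.3-fold higher in Tsc1 foxoRi clones, against the same floor, but it was not called in 29 libraries (adjusted p = 0.294) and replicate 3 held 71.3% of its summed level. In 31 libraries it was called (adjusted p = 0.0759). Sesn, a stress-induced TORC1 inhibitor, had 3.33, 4.32, 3.54 and 2.39 CPM in Tsc1 foxoRi clones, against 0.294, 0.277 and 0 CPM in foxoRi clones, a separation that missed the threshold (log2 FC 3.51 ± 1.26, adjusted p = 0.295) and passed it in 31 libraries (adjusted p = 0.0883).

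In the unfolded protein response, 0 of 15 genes were called by any of the 3 tests and 0 had an unadjusted p under 0.05 (median 0.06). In ER-associated degradation (ERAD), 0 of 16 were called (1 lower by DESeq2) and 1 was lower at an unadjusted p under 0.05, the predicted member CG6766 (log2 FC −0.97 ± 0.42, adjusted p = 0.372). Heat shock proteins had 0 of 18 calls by any of the 3 tests and 2 lower at an unadjusted p under 0.05 (median 0.39). In 31 libraries 4 unfolded protein response genes, 2 ERAD genes and 1 heat shock gene were called lower. One of them was Xbp1, the factor that Ire1 splices, which had 64.7, 121, 105 and 79.6 CPM in Tsc1 foxoRi clones, against 65.8, 62.1 and 521 CPM in foxoRi clones. Its log2 FC was 0.54 ± 0.29 in 29 libraries and −1.26 in 31. Autophagy genes (17 tested, median −0.14), lipid genes (12, median 0.37) and amino acid transporters (8, median 0.45) had 0 calls and 0 genes at an unadjusted p under 0.05 in 29 libraries, and DESeq2 called 1 lipid gene higher. In 31 libraries 1 autophagy gene was downregulated, 1 lipid gene was upregulated and 1 downregulated, and the medians were 0.33 for autophagy, 0.55 for lipid genes and 0.50 for transporters.

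The downregulated gene with the smallest p of the whole comparison was Eip75B, a nuclear receptor and early target of the moulting hormone ecdysone. It had 54.6, 52.3, 47.4 and 25.4 CPM in Tsc1 foxoRi clones, against 171, 233 and 329 CPM in foxoRi clones, and the groups were far apart over all 7 libraries (log2 FC −2.17 ± 0.27, adjusted p = 1.0e-04, and −2.48, adjusted p = 1.3e-04, in 31). Its locus (chromosome 3L, 17950953 to 18064696) overlaps 4 other annotated genes. In a list of 21 ecdysone receptor and response genes drawn up with results of these data in view, 0 were upregulated and 3 downregulated (0.54% of all tested genes were). Of the 21, 3 lay in quintile 4 and 10 in quintile 5 of expression, where 10 and 61 of 2705 genes each were downregulated. At an unadjusted p under 0.05, 2 were higher and 5 lower, and the median was −0.35. In 31 libraries 2 of 20 were upregulated and 5 downregulated. The members named here were chosen after their values were seen. ImpE2 (chromosome 3L, 3510974 to 3512681), a gene that ecdysone induces in discs, had 0.123, 1.41, 0 and 0.171 CPM in Tsc1 foxoRi clones, against 133, 44.4 and 207 CPM in foxoRi clones (log2 FC −7.50 ± 1.85, adjusted p = 0.112). Kr-h1, a transcription factor of the juvenile hormone and ecdysone response, was the third, with 62.1, 70.7, 47.8 and 50.2 CPM in Tsc1 foxoRi clones, against 123, 90.6 and 41.6 CPM in foxoRi clones (log2 FC −0.89 ± 0.24, adjusted p = 0.138). ImpE2 did not overlap between groups, and Kr-h1 did once foxoRi replicate 3 was counted and lost its call in 31 libraries (adjusted p = 0.290).

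Not all ecdysone response genes were lower. The nuclear receptor ftz-f1, a prepupal competence factor, had 78.2, 58.1, 102 and 75.7 CPM in Tsc1 foxoRi clones, against 18.8, 50.0 and 0 CPM in foxoRi clones (log2 FC 1.19 ± 0.49, adjusted p = 0.360), and was called higher in 31 libraries (adjusted p = 0.197). ImpE1, like ImpE2 an ecdysone-inducible gene, had 7.15, 24.1, 8.79 and 3.85 CPM in Tsc1 foxoRi clones, against 101, 14.8 and 81.2 CPM in foxoRi clones (log2 FC −2.39 ± 1.04, adjusted p = 0.375). Tsc1 foxoRi replicate 2 overlapped foxoRi replicate 2 for this gene.

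Genes of Notch and EGFR signalling, which set cell fate in the eye disc, held 5 of the downregulated genes. The list of 27 was also drawn up with results of these data in view, and the members below were chosen after their values were seen. It had 0 upregulated and 5 downregulated genes (0.54% of all tested genes were downregulated). Of the 27, 6 lay in quintile 4 and 21 in quintile 5 of expression. In these quintiles 10 and 61 of 2705 genes each were downregulated. At an unadjusted p under 0.05, 2 were higher and 10 lower, and the median was −0.78. The Notch receptor N had 361, 298, 390 and 450 CPM in Tsc1 foxoRi clones, against 771, 800 and 374 CPM in foxoRi clones (log2 FC −1.07 ± 0.25, adjusted p = 0.0947). The EGF receptor Egfr had 112, 108, 153 and 112 CPM in Tsc1 foxoRi clones, against 311, 266 and 407 CPM in foxoRi clones (log2 FC −1.25 ± 0.29, adjusted p = 0.0963). Egfr was below every foxoRi clone, while N overlapped foxoRi replicate 3. Downstream of Egfr, the ETS repressor aop had 80.2, 66.8, 144 and 76.6 CPM in Tsc1 foxoRi clones, against 517, 580 and 644 CPM in foxoRi clones (log2 FC −2.58 ± 0.77, adjusted p = 0.192). The ETS activator pnt had 17.99, 14.4, 68.3 and 15.1 CPM in Tsc1 foxoRi clones, against 166, 253 and 243 CPM in foxoRi clones, a gap that missed the threshold (log2 FC −2.86 ± 0.94, adjusted p = 0.253) and passed it in 31 libraries (adjusted p = 0.0540). Sur-8, a scaffold of Ras and Raf, had 112, 42.4, 87.7 and 77.7 CPM in Tsc1 foxoRi clones, against 359, 404 and 0 CPM in foxoRi clones (log2 FC −2.25 ± 0.61, adjusted p = 0.144), and lost its call in 31 libraries. With foxoRi replicate 3, 1 gene of the list was upregulated and 7 were downregulated.

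Among the 12 downregulated genes with the smallest p were also regulators of RNA and of neural fate, and 1 identifier that did not match the annotation and is not described. The RNA-binding protein Syp had 1146, 311, 672 and 752 CPM in Tsc1 foxoRi clones, against 3218, 2229 and 978 CPM in foxoRi clones (log2 FC −1.92 ± 0.39, adjusted p = 0.0417). The splicing regulator mbl had 420, 223, 330 and 305 CPM in Tsc1 foxoRi clones, against 938, 749 and 367 CPM in foxoRi clones (log2 FC −1.40 ± 0.28, adjusted p = 0.0415). The translational repressor pum had 123, 104, 84.7 and 114 CPM in Tsc1 foxoRi clones, against 215, 218 and 386 CPM in foxoRi clones (log2 FC −1.03 ± 0.21, adjusted p = 0.0417). Syp and mbl each overlapped at foxoRi replicate 3, pum did not, and all 3 were called in 31 libraries. The repressor ttk, which blocks neuronal fate, had 81.8, 72.3, 39.4 and 62.3 CPM in Tsc1 foxoRi clones, against 140, 163 and 279 CPM in foxoRi clones (log2 FC −1.24 ± 0.24, adjusted p = 0.0415). The zinc finger gene l(3)neo38 (−1.06 ± 0.23, adjusted p = 0.0727) and LRP1, an endocytic receptor of the LDL receptor family (−1.995 ± 0.41, adjusted p = 0.0417), were likewise below every foxoRi clone.

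Diap1, the inhibitor of apoptosis that Hippo signalling regulates, had 20.5, 27.7, 13.5 and 36.9 CPM in Tsc1 foxoRi clones, against 77.7, 92.3 and 10.8 CPM in foxoRi clones (log2 FC −1.78 ± 0.37, adjusted p = 0.0417). Of 11 Hippo targets and growth genes it was the 1 called, in 29 and in 31 libraries, with a list median of −0.33. The TNF receptor grnd had 31.9, 35.4, 23.6 and 37.4 CPM in Tsc1 foxoRi clones, against 90.5, 87.2 and 1.57 CPM in foxoRi clones (log2 FC −1.47 ± 0.30, adjusted p = 0.0417), the 1 downregulated gene of 14 for JNK signalling, cell death and competition (in 31 libraries, where grnd was not called, 1 other was). The chromatin gene Alh had 49.0, 38.9, 39.6 and 28.2 CPM in Tsc1 foxoRi clones, against 118, 105 and 1.35 CPM in foxoRi clones (log2 FC −1.52 ± 0.34, adjusted p = 0.0727). In all 3 foxoRi replicate 3 was the lowest library, and grnd and Alh lost their calls in 31 libraries (adjusted p = 0.327 and 0.334). CG42749 was near 0 in Tsc1 foxoRi clones, at 0.246, 0.0744, 0 and 0.342 CPM, against 48.4, 19.5 and 0.45 CPM in foxoRi clones (log2 FC −7.58 ± 1.55, adjusted p = 0.0417). The lysine demethylase gene Kdm4B, CG17724 and seq overlap on 1 strand of chromosome 2R and were all downregulated (log2 FC −2.30, −2.54 and −2.76), so they are not independent, and they were added after their values were seen. Of 152 called genes with coordinates, 75 overlapped another annotated gene.

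Markers of furrow and photoreceptor cells had lower levels in Tsc1 foxoRi clones without a call in the 29 libraries. Of these 10 genes 0 were called (1 lower by either DESeq2 or the likelihood ratio test), 0 were higher and 4 lower at an unadjusted p under 0.05, 9 had a log2 FC below 0, and the median was −2.28. Their summed level was 223, 92.0, 216 and 135 CPM in Tsc1 foxoRi clones, against 816, 926 and 906 CPM in foxoRi clones, with no overlap. Nearly all of the 906 CPM of foxoRi replicate 3 was the neuronal gene elav (893 CPM), and svp, gl, boss, ro, sens and lz had no count there. In the other clones all 10 had counts, except lz at 0 in Tsc1 foxoRi replicate 3. The proneural gene ato had 9.49, 0.447, 15.9 and 8.63 CPM in Tsc1 foxoRi clones, against 170, 48.9 and 0.225 CPM in foxoRi clones (log2 FC −3.68 ± 1.49, adjusted p = 0.359). The transcription factors lz (−6.21 ± 2.14, adjusted p = 0.275) and ro (−4.81 ± 2.13, adjusted p = 0.375) and elav (−1.96 ± 0.82, adjusted p = 0.365) were the other 3. Between the groups these sums differed in the same direction as the downregulated Notch, EGFR and ecdysone genes above. Library by library they did not always go together. Tsc1 foxoRi replicate 2 had the lowest sum and was also the lowest of its group for N, Egfr, aop, pnt and Sur-8. It was the highest of its group for ImpE1, Kr-h1 and ImpE2, the last at only 1.41 CPM. The part of furrow and photoreceptor cells in the levels of those genes was not tested. In 31 libraries elav and lz were called lower (adjusted p = 0.0409 and 0.145).

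Progenitor and retinal determination markers checked the labelled tissue. All 9 of ey, toy, eya, so, dac, hth, tsh, Optix and eyg had counts in all 7 libraries, with sums of 2106, 997, 1345 and 1670 CPM in Tsc1 foxoRi clones, against 2469, 1866 and 3669 CPM in foxoRi clones. By all 3 tests 0 were called, 0 were higher and 1 lower at an unadjusted p under 0.05, and the median was −0.10, with 0 calls and a median of −0.50 in 31 libraries. The phosphatase and transcription factor eya had 203, 32.7, 231 and 242 CPM in Tsc1 foxoRi clones, against 535, 558 and 60.02 CPM in foxoRi clones (log2 FC −1.62 ± 0.74, adjusted p = 0.375). The most anterior marker, hth, had 383, 458, 109 and 171 CPM in Tsc1 foxoRi clones, against 78.6, 87.5 and 2510 CPM in foxoRi clones (log2 FC 1.75 ± 0.98, adjusted p = 0.387). Tsc1 foxoRi replicates 1 and 2 were the highest for hth among the 6 libraries of the main comparison, and foxoRi replicate 3 exceeded them all.

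Fat body and glue markers peaked in Tsc1 foxoRi replicate 3. The 5 fat body markers summed to 15.8, 36.0, 2830 and 17.9 CPM in Tsc1 foxoRi clones, against 1.37, 15.6 and 0.225 CPM in foxoRi clones, and the larval serum protein gene Lsp1beta alone had 1437 CPM in Tsc1 foxoRi replicate 3. The 11 salivary gland glue genes, a list added after values were seen, summed to 11.8, 53.7, 6756 and 5.39 CPM in Tsc1 foxoRi clones, against 1.37, 0.831 and 1.35 CPM in foxoRi clones. This library held more than 90% of the summed Tsc1 foxoRi level of 6 upregulated genes, namely Muc68Ca (a mucin), ng2, ng3, CG32071, CG43117 and CG14265. Muc68Ca had 4.43, 6.18, 12570 and 0.598 CPM in Tsc1 foxoRi clones, against 0.393, 0.185 and 2.02 CPM in foxoRi clones (log2 FC 13.36 ± 3.33, adjusted p = 0.112). The call of such genes thus rests on 1 library. Without Tsc1 foxoRi replicate 3, 84 genes were upregulated and 67 downregulated, and of the 159 calls 107 were kept. Hemocyte, glia, antenna and trachea markers summed to at most 44.5 CPM in any Tsc1 foxoRi clone, with the highest of these clones being replicate 2 for each list, as for muscle, while antenna markers reached 139 CPM and glia markers 84.1 CPM in foxoRi replicate 3.

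The male-specific RNA roX1 varied within both groups, at 1013, 397, 471 and 1.79 CPM in Tsc1 foxoRi clones, against 564, 5.72 and 0.225 CPM in foxoRi clones. Tsc1 foxoRi replicate 4 and foxoRi replicates 2 and 3 were low for roX1 and for roX2. With the roX level as a covariate, 85 genes were upregulated and 72 downregulated, and 141 of the 159 calls were kept.

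**Figure D4:**
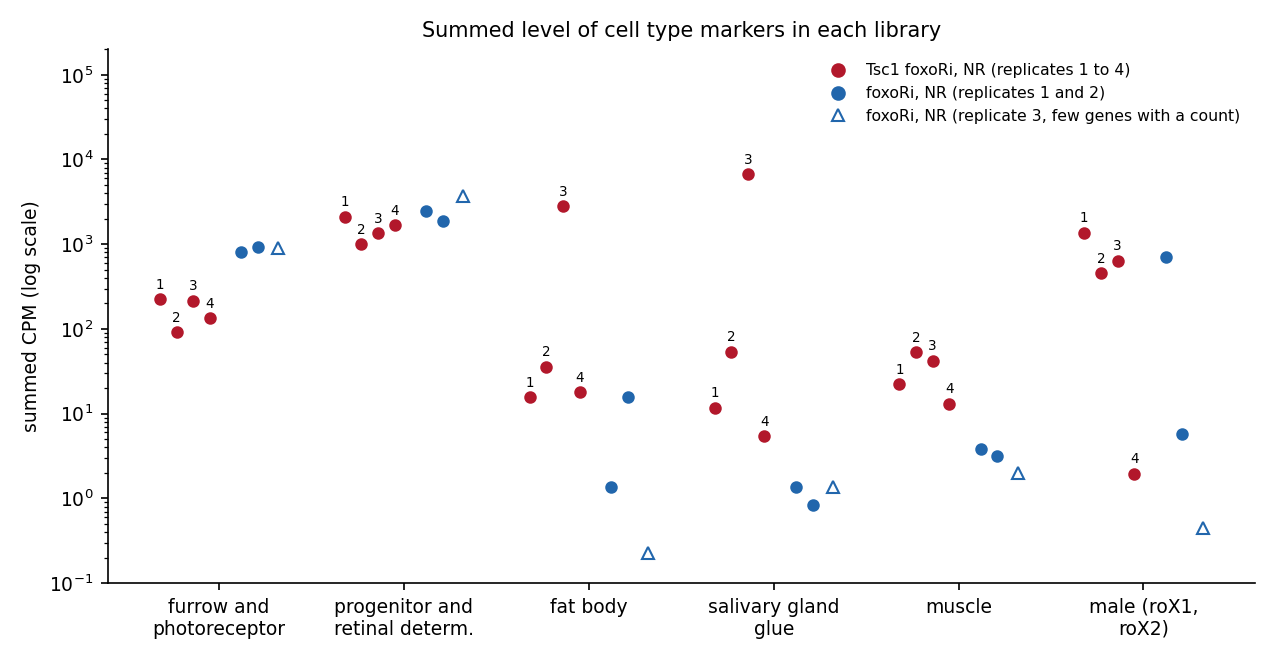
Summed CPM of cell type markers on a log axis in each library, with Tsc1 foxoRi clones in red (numbered by replicate) left of foxoRi clones in blue and foxoRi replicate 3 as an open triangle. Furrow and photoreceptor sums were 92.0 to 223 CPM in Tsc1 foxoRi clones and 816 to 926 CPM in foxoRi clones, and fat body and glue sums peaked in Tsc1 foxoRi replicate 3.

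The same question could be asked in libraries that share no clone with this comparison. On normal food, 71 genes (0.525%) were upregulated and 36 (0.266%) downregulated in Tsc1 foxoRi over foxoRi clones. Without the knockdown under NR, 64 genes (0.473%) were upregulated and 26 (0.192%) downregulated in Tsc1 over wt clones. Of the 86 genes upregulated here, 74 had a log2 FC above 0 on normal food (47.8% of tested genes did) and 79 without the knockdown (61.6% of tested genes did). At an unadjusted p under 0.05, 43 of them were higher on normal food (6.71% of tested genes were), 56 without the knockdown (5.81%) and 37 in both (1.67%). Of the 73 downregulated genes, 28 were lower at that threshold on normal food (4.36% of tested genes), 37 without the knockdown (2.57%) and 18 in both (0.739%). None of the 159 genes had an unadjusted p under 0.05 in the opposite direction in either comparison.

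**Figure D5:**
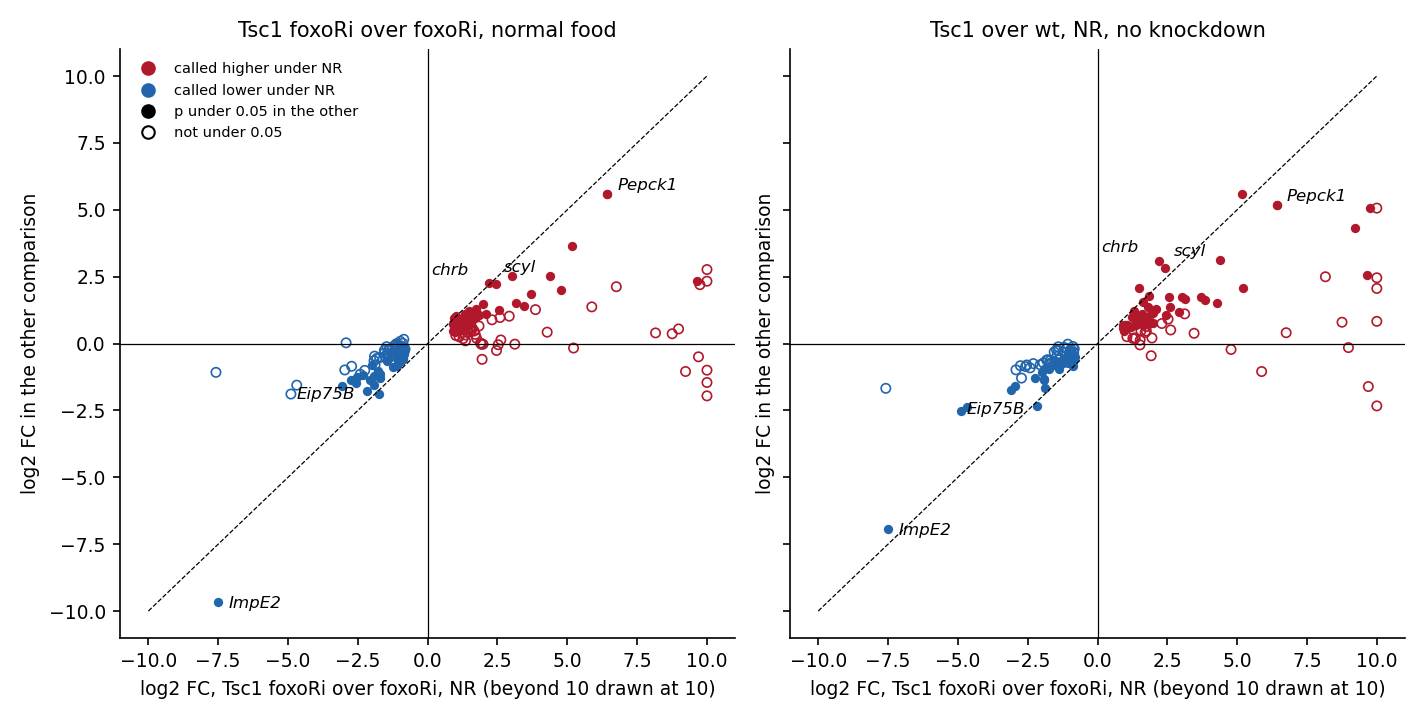
Log2 FC of the called genes in Tsc1 foxoRi over foxoRi clones under NR on the x axis, against their log2 FC in comparisons that share no library with it, on normal food with knockdown (left) and under NR without knockdown (right). Filled points had an unadjusted p under 0.05 in the other comparison and open points did not, and each filled point lies on the same side of 0 on both axes.

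Calls in all 3 comparisons were made for 9 upregulated and 2 downregulated genes, which were picked for this. The upregulated ones were scyl, chrb, Prx2, CG15093, CG9674, Akr1B (an aldo-keto reductase), Pepck1 with the overlapping CG45087, and an identifier that did not match the annotation, and the downregulated ones were Eip75B and ImpE2. Mean scyl levels were 1546 ± 649 CPM in Tsc1 foxoRi clones (SD, n = 4) and 286 ± 19.99 CPM in foxoRi clones (n = 2) under NR. They were 1781 ± 481 CPM in Tsc1 foxoRi and 384 ± 51.9 CPM in foxoRi clones on normal food (n = 4 each), and 2606 ± 662 CPM in Tsc1 and 368 ± 90.9 CPM in wt clones under NR without the knockdown (n = 4 each). Clones with functional Tsc1 had between 272 and 492 CPM in these 3 comparisons, foxoRi replicate 3 aside, and every clone without it had at least 879 CPM. Levels of chrb were 625 ± 290 and 135 ± 19.0 CPM in Tsc1 foxoRi and foxoRi clones under NR, 593 ± 141 and 124 ± 17.4 CPM on normal food, and 916 ± 167 and 107 ± 42.6 CPM in Tsc1 and wt clones under NR.

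Eip75B averaged 44.9 ± 13.4 CPM in Tsc1 foxoRi and 202 ± 44.0 CPM in foxoRi clones under NR, 67.6 ± 7.21 CPM in Tsc1 foxoRi and 231 ± 20.4 CPM in foxoRi clones on normal food, and 35.5 ± 9.20 CPM in Tsc1 and 178 ± 45.4 CPM in wt clones under NR. ImpE2 was at most 1.55 CPM in any Tsc1 foxoRi clone and at most 4.02 CPM in any Tsc1 clone under NR, while foxoRi and wt clones in these comparisons reached 1263 CPM and the lowest wt clone had none. Pepck1 averaged 146 ± 124 CPM in Tsc1 foxoRi and 1.71 ± 2.16 CPM in foxoRi clones under NR, 270 ± 209 CPM in Tsc1 foxoRi and 5.70 ± 3.91 CPM in foxoRi clones on normal food, and 155 ± 120 CPM in Tsc1 and 4.32 ± 4.02 CPM in wt clones under NR, where the lowest Tsc1 clone had 6.33 CPM and overlapped the highest wt clone at 10.0 CPM. For Prx2 the averages were 297 ± 81.2 and 96.1 ± 2.38 CPM in Tsc1 foxoRi and foxoRi clones under NR, and 212 ± 21.6 and 95.8 ± 41.5 CPM on normal food. Tsc1 against wt clones on normal food without the knockdown (4 and 3 libraries) was not tested here. There the groups overlapped for Eip75B (means of 106 and 123 CPM), Prx2 (175 and 138.5 CPM), CG15093 (49.75 and 41.1 CPM) and Pepck1 (77.6 and 40.4 CPM). They did not overlap for scyl, chrb, CG9674, Akr1B and ImpE2.

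Lists could be set side by side in the same way. Oxidative phosphorylation had 7 upregulated and 0 downregulated genes here, 6 and 0 on normal food and 7 and 0 without the knockdown, with medians of 0.71, 0.66 and 0.69, beside 0.47, −0.02 and 0.20 for all tested genes. The ecdysone list had 0 upregulated and 3 downregulated genes here, 0 and 5 on normal food and 1 and 4 without the knockdown. Small nucleolar and nuclear RNAs had 6 upregulated and 1 downregulated gene here, but 0 and 8 on normal food and 0 and 5 without the knockdown, with medians of 0.51, −0.40 and −0.26. Histone genes had medians of 1.43, −0.77 and −0.30. The share of counts on small nucleolar and nuclear RNAs was 3.14%, 4.99%, 3.46% and 3.60% in Tsc1 foxoRi clones, against 2.69%, 3.46% and 3.86% in foxoRi clones under NR, which overlapped (exact permutation p = 0.467 with 4 against 2 and 0.514 with 4 against 3).

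Whether the Tsc1 effect itself differed was tested gene by gene. Between NR and normal food 0 genes passed the thresholds in 29 or in 31 libraries by edgeR's quasi-likelihood test, with 1322 and 1662 at an unadjusted p under 0.05, and between clones with and without the knockdown under NR 0 passed, with 556 and 1034. DESeq2 called 101 and 27 genes for these differences in 29 libraries, and edgeR's likelihood ratio test 2 and 2. The genes with the smallest p for the food difference were CG4186 (−8.41 ± 1.88), CG3662 (−1.64 ± 0.39) and Muc68Ca (14.82 ± 3.63), each with an adjusted p of 0.508 from edgeR. CG4186 had 0 to 2.46 CPM in the 7 clones under NR, with a log2 FC of 0.03 under NR and 8.44 on normal food, and Muc68Ca was high in 1 library. For the knockdown difference they were brk (6.92 ± 1.62, or −1.26 in 31 libraries), snoRNA:Psi28S-3385b (2.38 ± 0.58) and asRNA:CR45896 (11.30 ± 2.88), each with an adjusted p of 0.936. The snoRNA lies within the gene kra on the same strand and had 43.7, 117, 80.1 and 65.3 CPM in Tsc1 foxoRi clones, against 24.3, 16.1 and 108 CPM in foxoRi clones. The antisense RNA had no count in foxoRi replicates 1 and 2 and was at least 36.5-fold higher in Tsc1 foxoRi clones, where replicate 3 held 78.2% of its level.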

How the data were processed

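The authors trimmed reads with Trimmomatic, mapped them to BDGP6 with STAR and counted them per gene with featureCounts. The authors deposited estimated counts of all 31 libraries (made with the Ovation SoLo kit, which is meant for low input) in 1 table without normalization. The strand setting is not given in the sources used here. The table listed 17559 genes. Names and positions came from the BDGP6.54 annotation for 17253 of them, and 306 stayed without. Values that were not whole (17.1%) were rounded. Ribosomal RNA took 37.7% to 49.9% of counts in the 7 libraries. Whether molecular identifiers were used in counting is not given in the sources used here, and floors (3 counts per library) cover counting error only.

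All 8 groups entered 1 model in edgeR 4.0.16 (R 4.3.3), with TMM scaling, filterByExpr and the quasi-likelihood test with Benjamini-Hochberg adjustment. The SE was taken as |log2 FC| over the root of the F statistic. The biological coefficient of variation was 0.858 in 29 libraries and 0.921 in 31. Single values were compared by exact 2-sided permutation tests. Alternatives were other normalizations, filters, DESeq2 1.42.0, edgeR's likelihood ratio test, fewer groups, covariates and libraries left out. The lists, the comparison and the set-aside libraries were chosen with earlier results of these data known. Genes named were 6 fixed ones, the 12 called genes of smallest p in each direction, the 10 of smallest p called in both 29 and 31 libraries, up to 4 members of each list, 3 genes of each difference, and others said to be added after their values were seen (those of the ecdysone, TCA cycle, Notch and EGFR and glue lists, and genes overlapping them). Sequences were not used here.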

Additional observations from a re-analysis of the deposited data

Results flagged for a closer look

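Among the 4 Tsc1 foxoRi clones, 1 library stood far from the other 3 for 13 of the named genes by Dixon's test. Chance alone passes it in about 1 of 20 groups. Many of the named genes were chosen after their values were seen, so the 13 are not read against that rate. For 11 of these genes it was replicate 3. They were Muc68Ca (12570 CPM), ng3 (3712 CPM), CG32071 (1787 CPM), ng2 (1473 CPM), Lsp1beta (1437 CPM), CG43117 (1167 CPM), CG14265 (441 CPM), Egfr (153 CPM), Pdp1 (96.9 CPM), pnt (68.3 CPM) and CG10863 (18.01 CPM). In replicate 2, UQCR-Q stood apart at 105 CPM and ImpE2 at 1.41 CPM. The genes Muc68Ca, ng2, ng3, CG32071, CG43117 and CG14265 had over 90% of their Tsc1 foxoRi level in replicate 3. They were listed above for that, so their passing the test adds nothing to it. Egfr, pnt and ImpE2 were below every foxoRi clone, and CG10863 above every foxoRi clone, in all 4 Tsc1 foxoRi clones.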

How the results depend on the processing

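The numbers of upregulated and downregulated genes (86 and 73) became 1037 and 776 in all 31 libraries, 1448 and 886 in 30 (foxoRi replicate 3 included), 990 and 271 with DESeq2, 189 and 116 with edgeR's likelihood ratio test, 222 and 171 with a filter of 5 CPM in 4 libraries, 0 and 6 in a fit of the 2 groups alone (4 against 3), and 4 and 10 at an adjusted p under 0.05. Downregulated genes became 111 without a filter, 127 without small RNAs, rRNA and unmatched genes, and 111 in a fit of the 2 groups alone (4 against 2). Of the 159 calls, however, that fit kept only 71, the 4 against 3 fit 6 and the fit of NR libraries 95. Leaving out 1 library at a time gave 0 to 95 upregulated and 2 to 127 downregulated genes. In the 31 libraries it gave 310 to 946 and 489 to 865, with the fewest without Tsc1 foxoRi replicate 3, and 470 upregulated without Tsc1 foxoRi replicate 2, 649 without foxoRi replicate 1 and 311 without foxoRi replicate 2. The differences between foods and with the knockdown, at 0 genes, became 101 and 27 with DESeq2 and 2 and 2 with the likelihood ratio test. Upregulated genes were 54.1% of calls, but 46.5% with upper quartile normalization, 37.6% without a filter, 35.5% without small RNAs, 78.5% with DESeq2 and 42.0% in NR libraries only. The causes were not tested. All 159 called genes kept their sign with 1 of foxoRi replicates 1 and 2 left out, and 13 turned sign in the 31 libraries.

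Signs turned only where foxoRi replicate 3 was counted. In 31 libraries, 30 libraries and the 4 against 3 fit, the log2 FC was −1.63, −1.63 and −1.65 for COX5A, −0.98, −0.98 and −1.01 for Mdh2, −0.49, −0.50 and −0.52 for Pdp1, −0.32, −0.33 and −0.35 for PyK, −1.60, −1.60 and −1.63 for UQCR-Q, and −2.30, −2.30 and −2.34 for brk. For Xbp1 it was −1.26 and −1.27 in 31 and 30 libraries.

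Whether replicate numbers paired the clones cannot be told from these groups. The deviations of Tsc1 foxoRi and foxoRi clones of the same number correlated at 0.0226 and −0.0256. With only 2 foxoRi libraries, each such value is mirrored with the opposite sign in the other foxoRi library. Over all groups the mean correlation was 0.0328 for clones of the same number and −0.0106 for clones of other numbers. With the replicate number as a block, 72 genes were upregulated and 76 downregulated, and 118 of the 159 calls were kept. The 2 usable foxoRi libraries limit what the comparison can call.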
